A study of Mus musculus with 6 samples.

Results

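The genes described here are the predicted loci and pseudogenes among those listed as different between livers of gigantol-treated and vehicle-treated mice. They were chosen by symbol from the 332 genes of the authors' deposited table, with earlier results of these data known. Taken were 73 symbols made of Gm and digits and 6 symbols ending in -ps (Serpina4-ps1 was left out). The ribosomal genes Rps3a2 and Rps18 were added, which made 81 genes in all. Bulk liver RNA was sequenced from 6 male Kunming mice, an outbred stock, 6 to 8 weeks old and 20 to 28 g. The gigantol group (3 mice) had received this plant bibenzyl by mouth at 10 mg/kg and the vehicle group (3 mice) an equal volume of vehicle, and livers were taken 4 h later. The titles carry the name PANC1 (a line of human pancreatic cancer cells), whereas organism, tissue and treatment labels are mouse liver and every gene ID is a mouse ID. Groups follow the treatment label.

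No row of the authors' deposited table has a log2 fold change smaller in size than 1.00 or an unadjusted p above 0.0499, both from these same 6 libraries. Differences between gigantol and vehicle were thus used to choose the genes and are given as a description, with no test that could support them. Members nearest to the fold limit were Gm47015 and Gm44231, with log2 fold changes of −1.02 and 1.03 in the authors' deposited table. Values are CPM, read numbers relative to library size but not to gene length, so levels are compared between livers and not between genes. Depths were 21200000 to 26700000 reads, so that 1 read was worth 0.0374 to 0.0471 CPM, and 37 of the 81 had a mean under 1 CPM. Read numbers were worked out from the common step of the CPM values of each library, since the table holds no counts, and an independent check of that step did not recover it in the vehicle libraries; read numbers, floors and intervals rest on it. Intervals and floors cover counting error only. Defining hepatocyte markers are not among the rows and were not analysed here. Of other cell types, 5 of 7 erythroid markers, 3 of 10 lymphoid, 2 of 6 stellate and 1 of 10 macrophage markers are rows of the table.

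A Gm symbol is a placeholder given to a mouse gene model that has no functional name. Behind such symbols stand several kinds of locus. Processed pseudogenes, or retrocopies, are copies of an mRNA that L1 retrotransposon enzymes wrote back into the genome; they lack introns and often keep nearly all of the parent's sequence. Unprocessed pseudogenes are decayed gene duplicates, antisense and intergenic transcripts are long RNAs with no known protein, and readthrough genes join the exons of neighbouring genes. Matched by gene ID to GENCODE M21 (mouse build GRCm38), 80 of the 81 were found, of which 32 were annotated as pseudogenes, 34 as noncoding or unclassified transcripts and 14, Rps18 among them, as protein-coding. The name is therefore only in part that of a pseudogene set. Coordinates below are those of the table, whose mouse build none of the sources used here names.

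The retrocopies are nearly the same as their parents in sequence, and the stretches below are shown because they are what reads had to be told apart by. Each is the 120-base stretch, 5′ to 3′, of the gapless coding alignment with the most differences (the first where several tie) between a GENCODE M21 transcript of the retrocopy and the parent's coding sequence, and capitals mark the bases that differ. Rps3a2 differs from Rps3a1, a small-subunit ribosomal protein gene, at 4 of 792 aligned coding bases. Rps2-ps13 differs from Rps2 at 7 of 882, Gm6644 from the aldose reductase gene Akr1b3 at 3 of 948, and Capza1-ps1 from the actin-capping gene Capza1 at 3 of 857; the alignments of Rps2-ps13 and Capza1-ps1 also hold 1 gap each. Each pair of stretches differs at 2 bases.
Rps3a2: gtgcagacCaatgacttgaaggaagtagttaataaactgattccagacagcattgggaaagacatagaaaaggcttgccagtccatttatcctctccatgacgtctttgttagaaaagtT
Rps3a1: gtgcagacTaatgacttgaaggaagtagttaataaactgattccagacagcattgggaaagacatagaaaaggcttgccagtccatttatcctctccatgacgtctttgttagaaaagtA
Rps2-ps13: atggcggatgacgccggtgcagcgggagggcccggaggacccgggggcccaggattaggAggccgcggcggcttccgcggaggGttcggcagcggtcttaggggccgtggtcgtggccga
Rps2: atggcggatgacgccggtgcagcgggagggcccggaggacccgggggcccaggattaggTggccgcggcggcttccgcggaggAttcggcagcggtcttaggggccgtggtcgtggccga
Gm6644: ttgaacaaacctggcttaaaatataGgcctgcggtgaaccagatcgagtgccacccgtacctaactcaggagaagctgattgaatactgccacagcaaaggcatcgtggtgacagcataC
Akr1b3: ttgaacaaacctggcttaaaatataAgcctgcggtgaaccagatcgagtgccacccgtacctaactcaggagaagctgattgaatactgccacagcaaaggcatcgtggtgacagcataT
Capza1-ps1: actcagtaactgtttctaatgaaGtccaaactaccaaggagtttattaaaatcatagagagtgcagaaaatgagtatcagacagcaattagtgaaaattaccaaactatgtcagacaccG
Capza1: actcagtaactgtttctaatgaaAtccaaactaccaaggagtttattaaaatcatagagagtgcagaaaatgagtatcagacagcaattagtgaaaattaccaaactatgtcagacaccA

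A second kind of repeated sequence was found in 8 members. Their transcripts, translated in all 6 frames, hold the 8-residue stretch around the catalytic aspartates of the L1 reverse transcriptase, the enzyme of the most abundant active mouse retrotransposon. The search was added after the data had been seen. The 24 bases that encode it are in capitals below, with 18 bases on each side. Shown are 3 members that carry it on the transcribed strand and Gm47578. Of the 8, Gm47578 alone carries it on the other strand, and it is shown reverse-complemented.
Gm48417: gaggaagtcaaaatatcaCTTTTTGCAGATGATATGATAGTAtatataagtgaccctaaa
Gm47102: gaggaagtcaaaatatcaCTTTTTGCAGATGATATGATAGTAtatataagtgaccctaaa
Gm42785: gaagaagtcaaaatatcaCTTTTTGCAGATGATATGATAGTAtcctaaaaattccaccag
Gm47578: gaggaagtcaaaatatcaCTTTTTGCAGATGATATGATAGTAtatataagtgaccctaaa
Gm48417, Gm47102 and Gm47578 have the same 60 bases here although they lie on chromosomes 12, 9 and 10. Of the 26 members annotated as processed pseudogenes, 7 (26.9%) held the stretch, beside 35 of 10236 (0.342%) such genes in the whole annotation, expressed or not.

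How much sequence a member shared with other genes was measured as the share of its transcript's 50-base words that occur exactly in transcripts of genes elsewhere. The median was 37.5% over the 80 members with a transcript and 0% over the 250 other rows, and 37 members (46.2%) against 15 other rows (6.00%) shared at least 50%. Retrocopies shared 26.3% to 100%, and readthrough genes, which lie on top of their neighbours and not apart from them, 0% to 26.4%. Whether the authors' counting kept, split or dropped reads that fit several genes is stated in none of the sources used here, so the CPM of members with much shared sequence are uncertain.

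**Figure D1:**
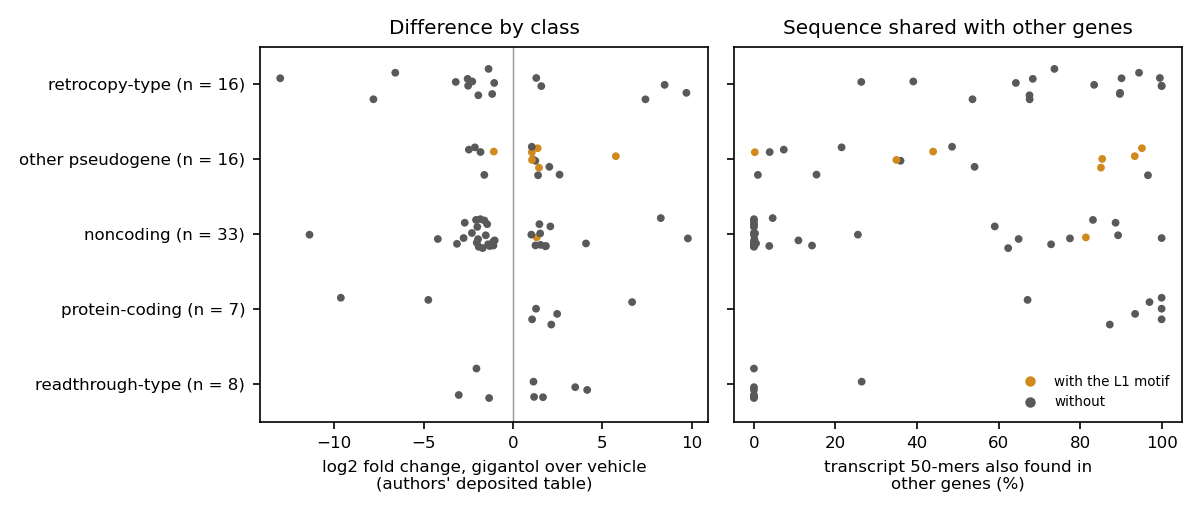
Members by class, with 1 point per gene: log2 fold change of gigantol over vehicle in the authors' deposited table (left) and percent of 50-base words of the transcript that occur in other genes (right). Orange points are the 8 members with the L1 motif, 7 of them on the higher side, where 35.8% of all 332 rows are. The class medians of shared words are 78.6% for retrocopies and 0% for readthrough genes. Gm53019, which has no annotation, is left out.

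Of the 81 members 39 had higher and 42 lower values in gigantol livers (48.1% higher, beside 31.9% of the 251 other rows). In the authors' deposited table, where FDR is adjusted over 13192 genes, 16 members passed 0.05, 7 higher and 9 lower, that is 19.8%, where 25.9% of all 332 rows passed (10.2% higher, 15.7% lower). Gigantol and vehicle livers did not overlap for 49 of 81 members (60.5%), beside 72% of all rows. By limma on log2(CPM + 1), 39 members had enough signal to be tested and 16 had an adjusted p under 0.05 over the table, where 55.2% of all tested rows did. That limma count was 10 on leaving out gigantol replicate 1, 10 on leaving out gigantol replicate 3, and 7 and 8 on leaving out vehicle replicates 2 and 3. Over 13192 genes, 3 of the 39 tested members had a limma adjusted p under 0.05, namely Capza1-ps1, Gm7292 and Gm14253. Of all 201 tested rows 9 (4.48%) did.

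**Figure D2:**
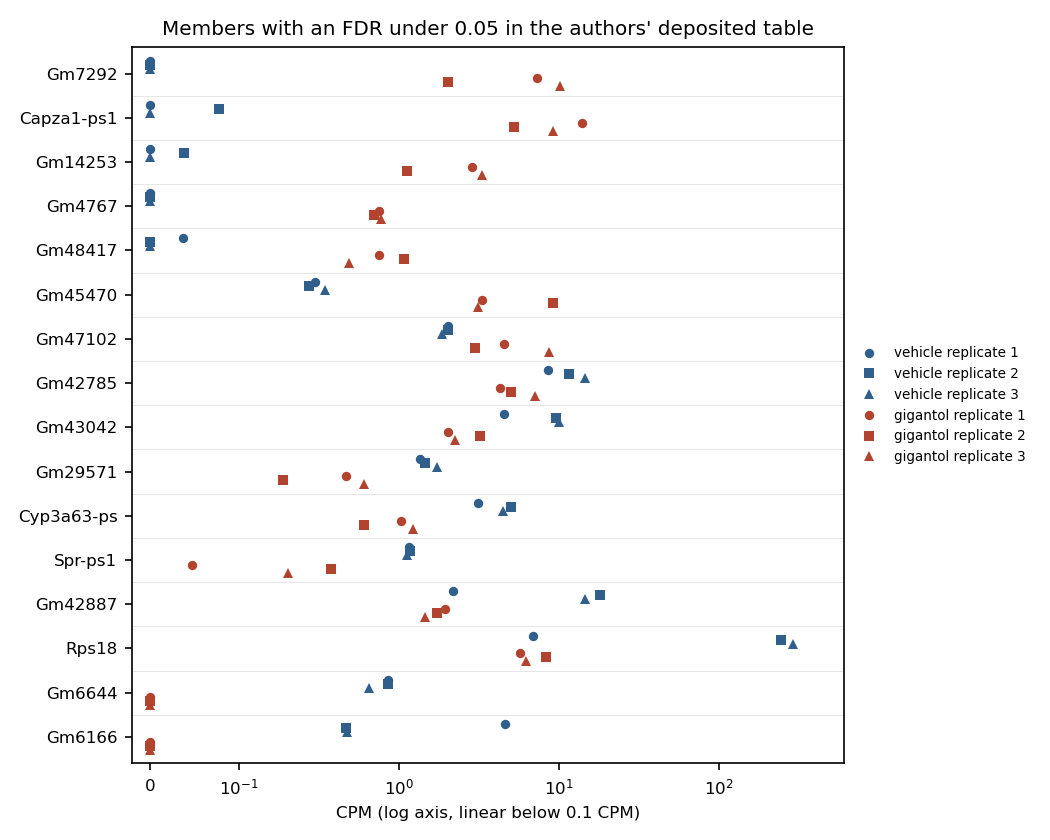
CPM in each of the 6 livers for the 16 members with an FDR under 0.05 in the authors' deposited table, ordered by fold change; points are single livers, shaped by replicate. Gm7292 and Gm4767 are at 0 in every vehicle liver, Gm6644 and Gm6166 at 0 in every gigantol liver, and for Rps18 vehicle replicate 1 lies among the gigantol livers.

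Among retrocopies, 16 members met the criterion set after seeing the annotation (a pseudogene not annotated as unprocessed, at least 95% identical to a coding transcript over at least 90% of its length), 5 higher and 11 lower, with 4 past the FDR. That is 25% past the FDR, beside 25.9% of all 332 rows. Capza1-ps1 (ENSMUSG00000067017, chromosome 1, 105383696 to 105386554, plus strand) is a copy of the gene for a subunit of the protein that caps actin filaments. It was at 13.98, 5.26 and 9.23 CPM in gigantol replicates 1 to 3 and at 0, 0.078 and 0 CPM in vehicle replicates 1 to 3. Every gigantol liver was high and every vehicle liver nearly empty. Reads were 636 in all gigantol and 2 in all vehicle libraries, a ratio of 357 per depth (95% exact interval 98.4 to 2952), and the authors' deposited table gives FDR 2.93e-11.

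Gm14253 (chromosome 2, 156189122 to 156189760, minus strand) is 99.4% identical over 639 bases to Pdcd10, a gene for an adaptor protein of vascular integrity. Its values were 2.87, 1.13 and 3.29 CPM in the gigantol livers and 0, 0.039 and 0 CPM in the vehicle livers, with FDR 8.07e-06 in the authors' deposited table. As for Capza1-ps1, the groups did not overlap. The vehicle reads were 1 in all against 166 in gigantol, a ratio of 186 (95% exact interval 33.0 to 7400). Gm14253 lies 220109 bases from Gm28036, a readthrough gene described below, and both were higher in gigantol.

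Gm6644 (chromosome 1, 55483233 to 55484183, minus strand) showed the opposite, with no read in any gigantol liver and 0.861, 0.860 and 0.651 CPM in the vehicle livers. Against a floor of 3 reads per library the vehicle mean was at least 5.87-fold higher, with FDR 0.000296 in the authors' deposited table. Gm6644 is the one retrocopy whose parent is also a row of the table. That parent, Akr1b3, which reduces glucose to sorbitol, was at 7.30, 4.88 and 4.15 CPM in gigantol and 11.9, 12.8 and 13.2 CPM in vehicle livers, with FDR 0.00135 in the authors' deposited table. Retrocopy and parent were therefore both lower, the parent still present and the copy at 0. Their transcripts are 99.7% identical, so how reads were divided between them cannot be told from the table. Parents of the other 15 retrocopies were not analysed here.

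Gm6166, 98.3% identical to the fatty acid binding protein gene Fabp5, was also at 0 in all gigantol livers. Its vehicle values were 4.61, 0.469 and 0.477 CPM (FDR 0.0269 in the authors' deposited table). Their mean, 1.85 ± 2.39 CPM (SD, n = 3), rested on vehicle replicate 1 and was 0.473 CPM without it. All 3 vehicle livers held reads, so the groups did not overlap. Against the floor of 3 reads per library the vehicle mean was at least 13.7-fold higher with all livers.

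Retrocopies of ribosomal protein genes formed a subgroup of 7, of which 1 was higher, 6 were lower and 0 passed the FDR of the authors' deposited table. Of all 332 rows 25.9% passed it. Rps2-ps13 (X chromosome, 51987465 to 51988346) was at 157 and 202 CPM in gigantol replicates 1 and 2 and at 0 in gigantol replicate 3, with 0, 0 and 0.434 CPM in the vehicle livers. Of 3 gigantol livers 1 thus looked like vehicle, and the authors' deposited table gives FDR 0.322. Rps3a2 (chromosome 14, 88360453 to 88361244) was at 0 in all gigantol livers and in vehicle replicate 1, and at 111 and 94.4 CPM in vehicle replicates 2 and 3 (FDR 0.0784 in the authors' deposited table). Its parent-type sequence differs at so few bases that 90.2% of its 50-base words occur in other genes. The livers that had it held 2840 and 2176 reads, far above the floor of 3 reads per library.

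Other retrocopies of this subgroup had reads in most livers. Gm8730 and Gm14165 both match Rplp0, the gene of a ribosomal stalk protein, at 98.7% and 97.2%. Gm8730 was at 37.9, 8.31 and 48.2 CPM in gigantol and 97.3, 77.5 and 68.5 CPM in vehicle livers, without overlap. Gm14165 was at 0.33, 0 and 0.203 against 1.161, 0.821 and 0.607 CPM, and its gigantol mean of 0.178 CPM was 0.102 CPM without gigantol replicate 1. Rps26-ps1 was at 87.4, 21.3 and 21.4 against 64.3, 108 and 98.3 CPM, where gigantol replicate 1 lay inside the vehicle range, and the gigantol mean of 43.4 CPM was 21.3 CPM without it. Gm10288 (Rpl11) was at 5.84, 10.2 and 4.55 against 7.34, 10.6 and 28.1 CPM.

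Rps18 itself is no pseudogene: it encodes a small-subunit ribosomal protein and is the one intact ribosomal protein gene among the 332 rows. Its values were 5.70, 8.31 and 6.22 CPM in gigantol livers and 6.93, 244 and 288 CPM in vehicle livers. Vehicle replicate 1 stood inside the gigantol range, while the other two vehicle livers were far above it. The authors' deposited table gives FDR 0.0134, and the limma log2 change was −3.43 ± 1.25 (SE) with a limma adjusted p over the table of 0.0476. That limma call was lost with pseudocounts of 0.1 and 0.5 CPM (adjusted p 0.0615 and 0.0520), with no filter on low values (0.0692), with genes averaging under 5 CPM left out (0.107), and on leaving out any library other than vehicle replicate 1 (0.0847 to 0.194); it was kept with the replicate block (0.0323) and without vehicle replicate 1 (0.000535). The vehicle mean of 180 ± 151 CPM (SD, n = 3) was 266 CPM without vehicle replicate 1. Of its transcript's 50-base words 67.1% occur in other genes.

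The remaining retrocopies were mostly sparse. H2af-ps2, a copy of a histone H2A gene, was at 0.188, 0.986 and 0.732 CPM in gigantol and 0.974, 2.62 and 3.73 CPM in vehicle livers, overlapping at vehicle replicate 1. Gm11843, a copy of the ubiquitin-conjugating enzyme variant gene Ube2v2, was at 0, 0.047 and 0.163 against 0.30, 0.665 and 1.04 CPM, and Gm13123, a copy of Gcn1l1, at 0.047, 0 and 0.325 against 0.187, 0.899 and 1.13 CPM. Without gigantol replicate 3 the gigantol mean of each was 0.0235 CPM, from 0.070 and 0.124 CPM. Gm44126, 100% identical over 512 bases to Uxs1, the gene of UDP-glucuronate decarboxylase, was higher in gigantol, at 1.20 ± 0.636 against 0.487 ± 0.167 CPM. Gm48216, which matches the predicted gene Gm42669, was also on the higher side, at 3.67, 2.21 and 8.37 against 2.40, 1.56 and 0.781 CPM, and its gigantol mean of 4.75 CPM was 2.94 CPM without gigantol replicate 3.

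The 8 members with the L1 motif were higher in 7 cases and lower in 1, where 35.8% of all 332 rows were higher. In 7 of the 8 the groups did not overlap, where 72% of all rows do not. Past the FDR of the authors' deposited table were 3 of the 8, where 25.9% of all rows passed. These were Gm48417 and Gm47102, both higher, and Gm42785, lower. Gm48417 (chromosome 12, 63618637 to 63622481) was at 0.753, 1.08 and 0.488 CPM in gigantol and at 0.037, 0 and 0 CPM in vehicle livers (FDR 0.00442 in the authors' deposited table). With 51 reads in gigantol and 1 in vehicle the ratio was 57.2 (95% exact interval 9.82 to 2304). Gm47102 (chromosome 9) was at 4.57, 3.00 and 8.66 against 2.02, 2.03 and 1.86 CPM, and Gm42785 (chromosome 3) at 4.28, 5.02 and 7.07 against 8.54, 11.5 and 14.4 CPM, with FDR 0.0473 and 0.0441 in the authors' deposited table.

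The other 5 with the motif did not pass. Gm48132 was at 5.37, 5.87 and 10.7 CPM in gigantol and 3.93, 3.68 and 2.52 CPM in vehicle livers, and Gm47578 at 6.54, 5.21 and 13.8 against 4.83, 2.54 and 2.78 CPM. Gm47951 was at 2.82 ± 0.574 against 1.36 ± 0.184 CPM and Gm47932 at 0.911 ± 0.239 against 0.434 ± 0.0886 CPM (SD, n = 3 each). Gm48416 was at 3.34, 1.97 and 14.7 against 2.13, 2.11 and 3.43 CPM, so that only gigantol replicate 3 lay above every vehicle liver. That liver was the highest gigantol liver for 5 of the 8. Each of the 8 matched transcripts of 46 to 415 other genes, and between 0.217% (Gm47951) and 95.2% (Gm48416) of their 50-base words occur elsewhere.

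**Figure D3:**
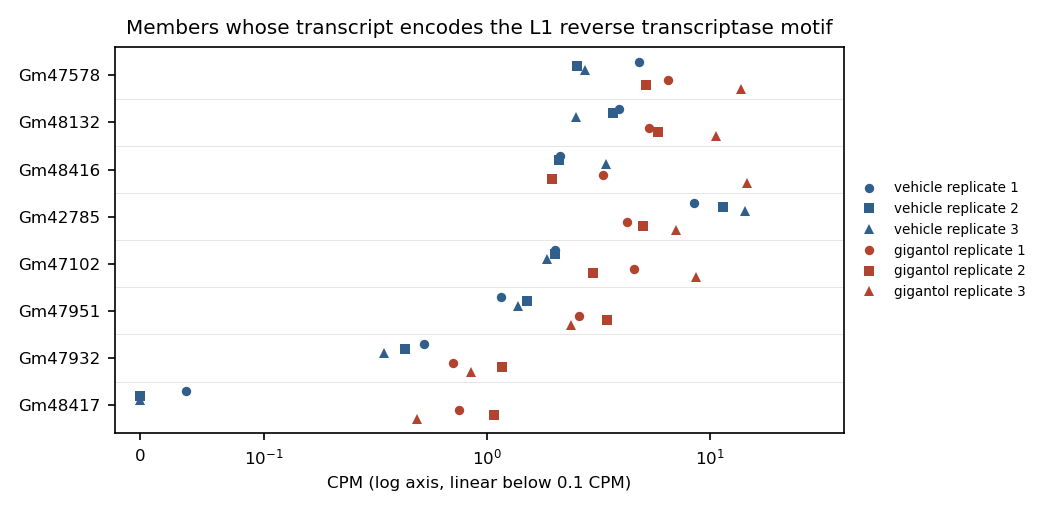
CPM in each liver for the 8 members with the L1 reverse transcriptase motif, with single livers as points shaped by replicate. In Gm47578 the motif is on the strand opposite to the transcript. In 7 of the 8 the gigantol and vehicle livers do not overlap (72% of all rows of the table do not), Gm48416 being the exception, and Gm42785 alone has its vehicle livers on the higher side.

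Among these, Gm48416 and Gm48417 lie with Gm48368 and Gm48415 in 1040 kb of chromosome 12 (62582132 to 63622481), all on the plus strand, all annotated as processed pseudogenes and all higher in gigantol. Gm48415 was at 7.77, 4.74 and 19.7 CPM in gigantol and 5.06, 3.44 and 3.64 CPM in vehicle livers. Gm48368 was at 1.54 ± 0.570 against 0.744 ± 0.396 CPM (SD, n = 3 each). Of the 4, Gm48417 alone passed the FDR of the authors' deposited table and alone had groups that did not overlap. Of all 332 rows 35.8% were higher, 25.9% passed the FDR and 72% had groups that did not overlap. In Gm48368, Gm48415 and Gm48416, gigantol replicate 3 was the highest liver and gigantol replicate 2 the lowest gigantol liver. The cluster was noticed in the data and not chosen beforehand.

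Pseudogenes of duplicated genes included Cyp3a63-ps (chromosome 5, 145560902 to 145570803), 93.8% identical to Cyp3a41b, a gene of the Cyp3a family of drug and steroid hydroxylases. It was at 1.04, 0.610 and 1.22 CPM in gigantol and 3.11, 5.04 and 4.47 CPM in vehicle livers, with no overlap and FDR 1.62e-05 in the authors' deposited table. Spr-ps1, named after sepiapterin reductase, an enzyme of tetrahydrobiopterin synthesis, was at 0.047, 0.375 and 0.203 against 1.161, 1.17 and 1.13 CPM, past the threshold in the authors' deposited table (FDR 0.0176), and its gigantol mean of 0.208 CPM was 0.125 CPM without gigantol replicate 2. Vehicle livers of Spr-ps1 were nearly equal (1.15 ± 0.0233 CPM, SD, n = 3). Gm5834, 94.1% identical to the complement factor H related gene Gm4788, was at 31.1, 2.53 and 7.32 against 2.81, 1.96 and 2.00 CPM. Its gigantol mean of 13.6 CPM was 4.93 CPM without gigantol replicate 1, and it did not pass.

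Of the 33 noncoding members, 12 were higher (36.4%) and 21 lower, beside 35.8% higher among all 332 rows. The FDR of the authors' deposited table was passed by 5 (15.15%), beside 25.9% of all rows. Gm7292 (chromosome 6, 117693303 to 117695829) had no read in any vehicle liver and 7.30, 2.02 and 10.1 CPM in the gigantol livers. Against the floor of 3 reads per library that is at least 54.0-fold higher, with FDR 1.54e-10 in the authors' deposited table and a limma adjusted p of 0.0378 over 13192 genes. It is annotated as an intergenic RNA of a single exon of 2527 bases, and 77.5% of its 50-base words occur in 1 other gene. Gm45083, 103771 bases away on the other strand, was lower, at 0.363 ± 0.103 against 0.776 ± 0.122 CPM (SD, n = 3 each).

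Antisense partners share a stretch of genome, and counting without strand would mix their reads. In the annotation 27 members overlap a gene on the opposite strand, and for 2 of these the partner is also a row of the table. Gm45470 (chromosome 8, 27718714 to 27730360, plus strand) overlaps Adrb3, the β3-adrenergic receptor gene. It was at 3.30, 9.15 and 3.13 CPM in gigantol and 0.30, 0.274 and 0.347 CPM in vehicle livers, with FDR 5.21e-10 in the authors' deposited table. The gigantol mean was 5.19 CPM with all livers and 3.21 CPM without gigantol replicate 2, against a vehicle mean of 0.307 CPM. Adrb3 was at 2.97, 8.07 and 2.52 against 0.824, 0.939 and 0.737 CPM. Gigantol replicate 2 was the highest liver for both members of the pair, and neither had overlapping groups. Libraries were stranded per the labels' protocols, but none of the sources used here says whether the counting used strand, so reads of the pair cannot be told apart.

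Gm16174 overlaps Bcl3, a nuclear IκB family regulator of NF-κB, and here the means differed in opposite directions. Gm16174 was at 0.235, 0.422 and 0.285 CPM in gigantol and 0.899, 0.626 and 1.04 CPM in vehicle livers, and Bcl3 at 14.3, 14.8 and 30.6 against 5.84, 10.2 and 12.3 CPM. Neither passed the FDR of the authors' deposited table (0.363 and 0.247). Gm44660, 78708 bases from Gm16174, was lower too, at 1.11 ± 0.629 against 3.21 ± 0.632 CPM (SD, n = 3 each), with FDR 0.0549 in the authors' deposited table.

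Another 3 members had a table neighbour within 10 kb. Gm14165 lies 9582 bases from Trib3, a pseudokinase gene of nutrient stress, which was also lower, at 9.46 ± 2.31 against 20.5 ± 2.83 CPM (SD, n = 3 each). Gm47248, antisense to Trim34a, lies 1211 bases from Trim5 on the same strand. It was at 0, 0.329 and 0 against 0.262, 1.41 and 1.17 CPM, and Trim5 at 3.44, 1.41 and 6.91 against 6.07, 11.8 and 10.9 CPM. Gm44620 lies 8112 bases from Tcim on the other strand. It was at 0.047, 0.188 and 0.122 against 0.15, 0.587 and 0.651 CPM, and Tcim at 42.6, 27.8 and 46.7 against 32.9, 101 and 116 CPM. Vehicle replicate 1 lay inside the gigantol range for both. In all, 5 of 81 members had such a neighbour, in 4 of these 5 pairs with the same direction.

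Other noncoding members past the FDR of the authors' deposited table were all lower. Gm42887, an unclassified transcript all of whose 50-base words (100%) occur in other genes, was at 1.93, 1.74 and 1.46 CPM in gigantol and 2.17, 18.1 and 14.5 CPM in vehicle livers. Its groups did not overlap, but vehicle replicate 1 was close to the gigantol livers. The authors' deposited table gives FDR 0.00151, and the limma adjusted p over the table was 0.0276. That limma value was 0.0537 to 0.0857 on leaving out any library other than vehicle replicate 1, and 0.00153 without vehicle replicate 1. Gm43042 was at 2.02, 3.19 and 2.24 against 4.53, 9.54 and 10.1 CPM, and Gm29571 at 0.471, 0.188 and 0.610 against 1.35, 1.45 and 1.74 CPM, with FDR 0.00176 and 0.0434 in the authors' deposited table. Gm47939 lies 225935 bases from Gm29571 on the same strand and was at 0, 0.047 and 0.772 against 0.974, 2.07 and 2.34 CPM. Its gigantol mean of 0.273 CPM was 0.0235 CPM without gigantol replicate 3.

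Gm47544 lies opposite Apoa5, the gene of an apolipoprotein that controls plasma triglycerides, and is described with the on and off patterns. Gm44706, Gm29966 and Gm48942 were chosen after their values were seen. Gm44706 lies opposite Pex11a, a peroxisome division gene known as a PPARα target, and was at 0.377, 1.03 and 0.691 CPM in gigantol and 0.30, 0.235 and 0.347 CPM in vehicle livers. Those groups did not overlap, and the authors' deposited table gives FDR 0.627. Gm29966 overlaps Mir122, the gene of the main hepatocyte microRNA, on the same strand. It was at 1.22, 4.65 and 1.26 against 0.262, 1.06 and 1.17 CPM, with FDR 0.518 in the authors' deposited table. Gm48942, an intergenic RNA with 4888 to 6412 reads in the vehicle livers, was at 62.2, 164 and 84.6 against 183, 202 and 278 CPM, with FDR 0.161 in the authors' deposited table.

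Of the 7 members annotated as protein-coding and not of the readthrough kind, 5 were higher and 2 lower. Gm4767 (chromosome 10, 81648020 to 81662324) was at 0.753, 0.704 and 0.772 CPM in gigantol and had no read in any vehicle liver, at least 6.20-fold higher against the floor, with FDR 0.000271 in the authors' deposited table. The gigantol livers were nearly equal and each rested on 15 to 19 reads. Gm32687, 37443 bases away, was at 0.753, 1.78 and 2.32 against 0, 0.235 and 0.651 CPM. Its closest coding relative is Zfp433, a zinc finger gene and itself a row of the table, at 99.9% identity. Zfp433 was on the lower side, at 1.98, 0.798 and 0.366 against 2.58, 2.70 and 3.04 CPM. How reads were divided between Gm32687 and Zfp433 was not tested.

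A second group on chromosome 2 (175032858 to 177152640) held Gm14391, Gm14440, Gm14419, Gm14400 and Gm14414, 3 higher and 2 lower. Gm14440, which the table annotates with a C2H2 zinc finger domain, was at 0 in the gigantol livers and at 8.05, 11.6 and 0 CPM in the vehicle livers, and 100% of its 50-base words occur in other genes. Gm14391, 68207 bases from it on the other strand, was at 8.76, 5.35 and 3.46 against 2.32, 3.21 and 2.86 CPM. Gm14419 was at 0.80 ± 0.331 against 0.326 ± 0.135 CPM (SD, n = 3 each). Gm14400 was at 2.17, 0.282 and 0.528 against 0.15, 0.235 and 0.347 CPM, and its gigantol mean of 0.992 CPM was 0.405 CPM without gigantol replicate 1. None of the 5 passed the FDR of the authors' deposited table, the smallest being 0.240 (Gm14391). Of all 332 rows 25.9% passed it.

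Readthrough members, with at least 80% of their exons shared with 2 or more genes on the same strand, numbered 8, of which 5 were higher, 3 lower and 0 past the FDR of the authors' deposited table. Of all 332 rows 25.9% were past it. Gm20547 spans the complement genes C2 and Cfb and was at 1.27, 13.2 and 13.6 CPM in gigantol and 1.46, 0.117 and 0 CPM in vehicle livers. Vehicle replicate 1 was above gigantol replicate 1, and the vehicle mean of 0.526 CPM was 0.0585 CPM without it. Gm20390 spans Nme1 and Nme2, nucleoside diphosphate kinase genes, and was at 7.39, 16.8 and 8.50 against 5.17, 3.71 and 5.90 CPM. Gm28577, which spans Serpina9 and Serpina11, was at 1.23 ± 0.415 against 0.381 ± 0.0949 CPM, and Gm28035, over Lrrc8a and Phyhd1, at 1.29 ± 0.143 against 0.575 ± 0.365 CPM (SD, n = 3 each).

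On the lower side, Gm20708, which spans Afmid and Syngr2, was at 0.706, 7.28 and 1.67 CPM in gigantol and 1.20, 29.9 and 47.9 CPM in vehicle livers. Gm28040, over Golt1a and the kisspeptin gene Kiss1, was at 0.377, 1.83 and 0.935 against 0.562, 5.75 and 6.63 CPM. In both, vehicle replicate 1 lay inside the gigantol range. Gm49395, over Itga1 and Pelo, was at 0.377 ± 0.163 against 0.947 ± 0.442 CPM (SD, n = 3 each). Since nearly all exons of these genes belong to a neighbour as well, their CPM depends on how the counting assigned reads to overlapping genes.

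Within a group, some members were on in one liver and off in another. Counting as off a library with at most 3 reads and as on one with at least 10 times that, 3 members had such a pattern in gigantol (2.11% of all 332 rows had) and 5 in vehicle (2.41% of all rows). In gigantol these were Rps2-ps13, Gm28036 and Gm10874. Gm28036, over Cpne1, Rbm12 and Nfs1, had 48, 0 and 53 reads in gigantol and 3, 5 and 2 in vehicle livers. Gm10874 had 65, 0 and 92 reads in gigantol and 0 in every vehicle liver, and gigantol replicate 2 was thus the empty one in both. In vehicle the pattern was seen in Rps3a2, Gm47544, Gm14440, Gm17167 and Gm20547.

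Gm47544 had 0 reads in the gigantol livers and in vehicle replicate 1 and 722 and 869 reads in vehicle replicates 2 and 3 (28.2 and 37.7 CPM). It and Rps3a2 were thus present in the same 2 livers, whereas Gm14440 was present in vehicle replicates 1 and 2. Gm17167 had 42, 41 and 65 reads in gigantol and 31, 6 and 3 in vehicle livers. None of the 8 passed the FDR of the authors' deposited table, where 25.9% of all 332 rows passed. The 8 were picked for a wide spread within a group, which works against a small p. No conclusion is therefore drawn from that count. Kunming mice are outbred, and the genotype of each mouse at these loci was not analysed here.

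**Figure D4:**
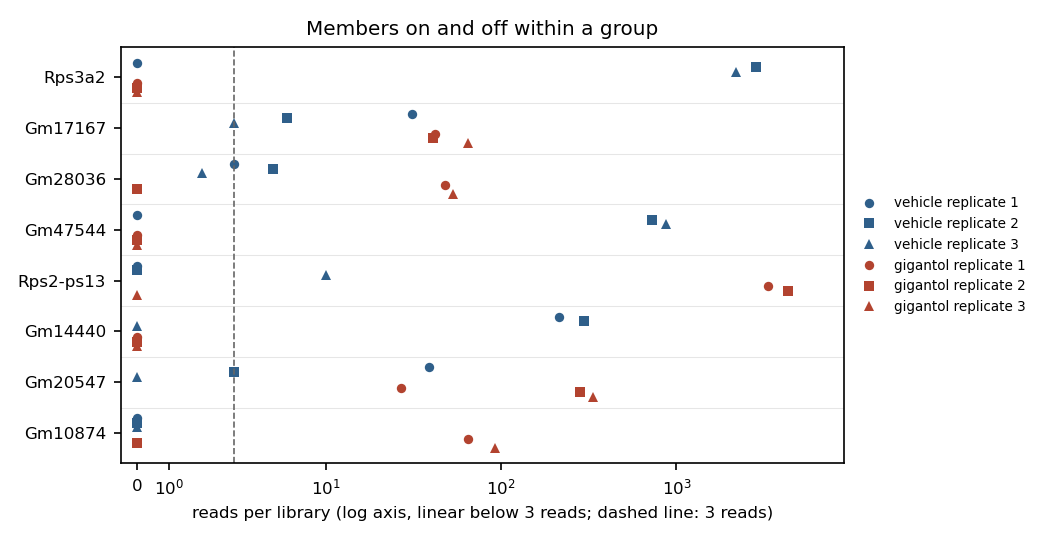
Reads per library, worked out from the CPM step, for the 8 members on and off within a group; the dashed line marks 3 reads and points are single livers. Rps3a2 and Gm47544 have reads in vehicle replicates 2 and 3 alone, and Rps2-ps13 has 3341 and 4303 reads in gigantol replicates 1 and 2 and none in gigantol replicate 3.

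The library that stood apart most often was vehicle replicate 1. Among the 42 lower members it was the vehicle liver nearest to the gigantol livers in 32, vehicle replicates 2 and 3 in 4 and 6. In 20 of the 42 (47.6%) it reached into the gigantol range while both other vehicle livers lay above it, beside 23 of 171 (13.5%) lower genes among the other rows; the difference between these shares was not tested. Of the 20, 6 were retrocopies, 4 of them with a ribosomal protein parent, and Rps18 was a further one. Without vehicle replicate 1 the groups of 75 members (92.6%) and 300 rows of the whole table (90.4%) did not overlap, against 49 and 239 with all livers.

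Some markers of several other cell types are rows of the table too. Every row was selected on this contrast, so their difference between the groups was fixed in advance. Of endothelial markers 0 of 6 and of biliary markers 0 of 5 are rows. The summed CPM of 5 erythroid markers in the table (Hba-a1, Hba-a2, Hbb-bs, Hbb-bt and Slc4a1) was 554 in vehicle replicate 1, 1912 and 1110 in vehicle replicates 2 and 3, and 349, 633 and 572 in gigantol replicates 1 to 3. Vehicle replicate 1 was the lowest vehicle liver for this sum as for the summed members, whereas among gigantol livers the lowest was replicate 1 for the erythroid sum and replicate 3 for the members. The 3 lymphoid markers (Nkg7, Cd8a and Cd79a) summed to 0.565 to 0.939 CPM in gigantol and 2.00 to 2.27 CPM in vehicle livers. The 2 stellate markers (Lrat and Des) summed to 6.81 to 11.9 against 13.1 to 24.5 CPM, and the macrophage marker Marco was at 1.54 to 3.71 against 8.21 to 8.89 CPM. None of these markers was at 0 in any library, and their part in the result was not tested. In bulk tissue, fewer cells of a type and less RNA per cell cannot be told apart. The members together took 467 CPM in vehicle replicate 1, 984 and 1116 CPM in vehicle replicates 2 and 3, and 374 to 564 CPM in gigantol livers. Much of the gap between vehicle livers lay in Rps18 and Rps3a2. In vehicle replicates 1 to 3 Rps18 was at 6.93, 244 and 288 CPM and Rps3a2 at 0, 111 and 94.4 CPM. Among lower members gigantol replicate 2 reached into the vehicle range in 17 of 42 and among higher ones in 9 of 39, the most of the 3 gigantol livers.

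**Figure D5:**
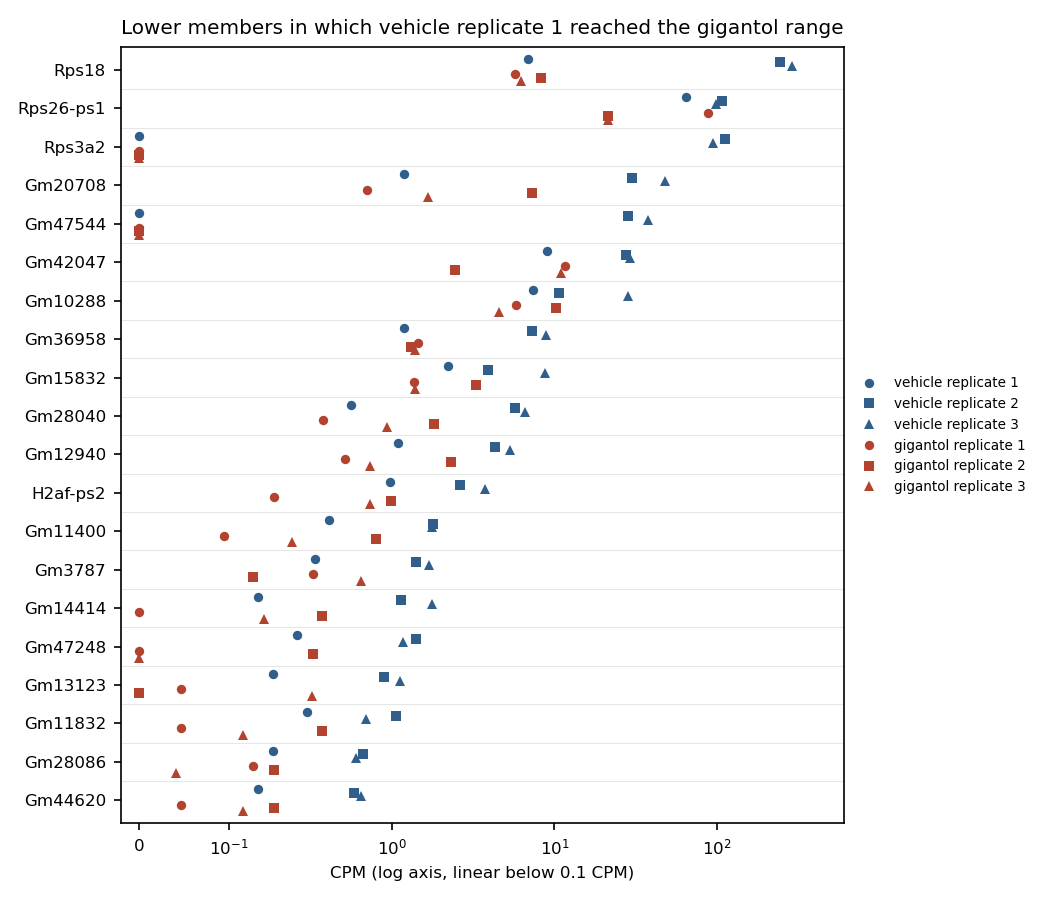
CPM in each liver for the 20 lower members in which vehicle replicate 1 reached into the gigantol range and both other vehicle livers lay above it; points are single livers shaped by replicate. On this log axis Rps18, Rps3a2, Gm20708 and Gm47544 have vehicle replicate 1 farthest from vehicle replicates 2 and 3; Rps3a2 and Gm47544 are at 0 in vehicle replicate 1.

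By position the 81 members lay on 19 chromosomes, with 12 on chromosome 2 and 8 on chromosome 10. All 5 on chromosome 12 were higher. The other rows are spread over the genome as well, and no test of position was made. Members not named above had values in the same ranges, between 0.291 and 162 CPM in their mean over all livers for the whole set.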

How the data were processed

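Livers of 3 gigantol and 3 vehicle mice were compared, grouped by the treatment label. The tools in the submitters' processing notes are HISAT2, fastp and DESeq2 1.16.1, without their roles, and the build there is GRCh38, which is human. The CPM were deposited by the authors in 6 columns; the unit was read from the values, of which 100% were whole multiples of 1 step per library within 0.1 reads. Log2 fold changes, p-values and FDR were deposited by the authors beside them, per the file headers; FDR over p gives 13192 genes.

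limma 3.58.1 (R 4.3.3), with trended, robust variance moderation and Benjamini-Hochberg adjustment, was fitted to the whole table on log2(CPM + 1), keeping genes that reached 1 CPM in 3 or more libraries, which left 42 members untested. The fit was also run on simulated reads, with the same spread setting for every gene and no selection of rows on the contrast. That run therefore cannot speak for these selected rows. Fold changes on log2(CPM + 1) understate those of low genes, and these libraries had also served to select the rows. Transcripts were compared with blastn 2.17.0. The design names 6 mice for the 6 libraries, all of 1 batch label, but no label ties a library to a mouse, so p-values measure only the spread between these samples. The classes, the L1 search, the clusters, the vehicle replicate 1 pattern and the printed sequences were chosen after values were seen.

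Members and lists were chosen with earlier results of these data known. The text names members past an FDR of 0.05, the 5 largest changes each way, on and off patterns, -ps symbols and genes with a table neighbour within 10 kb, 30 in all; others were named for their class after their values were seen. Of fixed lists, ribosomal protein genes had 2 rows, both lower, and mitochondrial ribosomal, chromatin silencing and decay genes 0. Noncoding symbols of other naming styles had 17 rows, 8 higher and 9 lower, 3 past the FDR. One marker gene and the parent of one retrocopy, with its values, are not reported here.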

Additional observations from a re-analysis of the deposited data

How the results depend on the processing

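By limma 16 of 39 tested members passed over the table, where 55.2% of all tested rows did. With no filter on low values 34 of 81 tested members passed, and with a mean of at least 5 CPM 1 of 18. Without any 1 library 7 to 24 of 39 passed, and with the replicate block 25 of 39. The share of all rows in these other runs was not analysed here. Titles share replicate numbers, but deviations of same-numbered livers correlated at 0.0996, 0.0936 and −0.0734, and not every liver correlated best with its own number, so the numbers were not taken to pair mice. Non-overlapping members numbered 49, and 49 to 75 without any 1 library. Members with a table neighbour numbered 5, and 2 by overlap and 12 within 100 kb. On and off members numbered 8, 9 with a floor of 1 read, 6 with a floor of 5 reads, and 12 with 5 times the floor counted as on. None of the 15 named members tested changed direction over 155 runs. Their rows had been selected on this contrast from these same libraries, so the unchanged direction is no support for the differences. Of the runs, 33 lost the threshold and 2 gained it. The cause was not tested.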
